A study of Mus musculus with 4 samples.

Results

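The cells described here were sorted as basal cells of mouse dorsal interfollicular epidermis and carried no tdTomato label. The question was how these cells differed among themselves. They came from 2 libraries of Tomato-minus (Tom-minus) cells, replicate 1 and replicate 2, which carry different run tags in the sample labels. A well was counted as a cell when it held at least 2000 unique molecular identifiers (UMIs) on genes, with spike-in and reporter rows left out. This gave 20 of 96 wells in replicate 1 and 48 of 96 wells in replicate 2, 68 cells in all, out of 161 such cells among the 384 wells of the series. The donors were *Ivl-CreERT2*/*R26-tdTomato* female mice, aged 57 days. By the sample labels they had received tamoxifen at 10 µg per g of body weight 2 days earlier, whereas the paper's methods state a higher dose. In these mice the *Ivl* (involucrin) promoter drives a Cre recombinase that acts only after tamoxifen, and recombination switches on tdTomato for good. Non-traced cells therefore carried the same alleles and the same tamoxifen as the traced ones, and a cell that tamoxifen failed to recombine counts as non-traced as well. Live cells were sorted for surface ITGA6 and LY6A without CD34 and captured on Fluidigm C1 chips, 1 chip per library. The labels do not say that a run stands for a mouse, and cells of 1 chip are not replicates, so every value below is a description of these cells and no p-value is given.

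Basal keratinocytes sit on the basement membrane and build their filaments from keratins 5 and 14, with keratin 15 in many of them. They divide, and as they differentiate they turn on keratins 1 and 10 and leave the layer. Freshly isolated epidermal cells are also known for immediate early genes, such as *Fos* and *Jun*, whose transcripts appear within minutes of a stimulus, including the stress of dissociation.

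Replicate 1 cells held 2088 to 9043 UMIs, with a median of 3877, and replicate 2 cells held 2024 to 10710, with a median of 3225. A median of 1508.5 genes per cell was seen in replicate 1 and of 1216.5 in replicate 2. In replicate 1, 64 further wells had no UMI and 12 had fewer than the minimum, the highest of them 1497, and in replicate 2 these numbers were 26, 22 and 1970. The median share of mitochondrial UMIs was 6.27% and 7.0%, and the median share of spike-in molecules was 2.48% and 3.27%. No well name was shared between the libraries and no pair of cells had identical counts. Between the summed libraries the counts of 4233 genes differed by 2.3 times the counting noise (chi-square per degree of freedom). Cells within a library also differed by more than counting noise, with median Fano factors (variance over mean, defined below) of 1.73 and 1.86. The value of 2.3 therefore does not separate a difference between libraries from differences between cells.

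A small set of cells stood apart before any gene was compared. Genes of the cytoplasmic ribosomal proteins took a median of 13.2% of UMIs in replicate 1 and of 14.4% in replicate 2, but 7 cells of replicate 2 held 1.59% to 3.38%. The other 41 cells of replicate 2 held 9.52% to 22.5%, and no cell lay between. In replicate 1, 1 cell held 2.39% and the other 19 held 7.37% to 18.6%. A bound of 5%, set after these values were seen, separates these 8 cells from the rest. By their well names all 7 of replicate 2 came from columns 1 to 3 of the 12 of the chip, which held 15 of its kept cells. Their median depth was 2514 UMIs against 3338, their spike-in share 4.2% against 3.08%, and their mitochondrial share 8.88% against 6.35%.

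**Figure D1:**
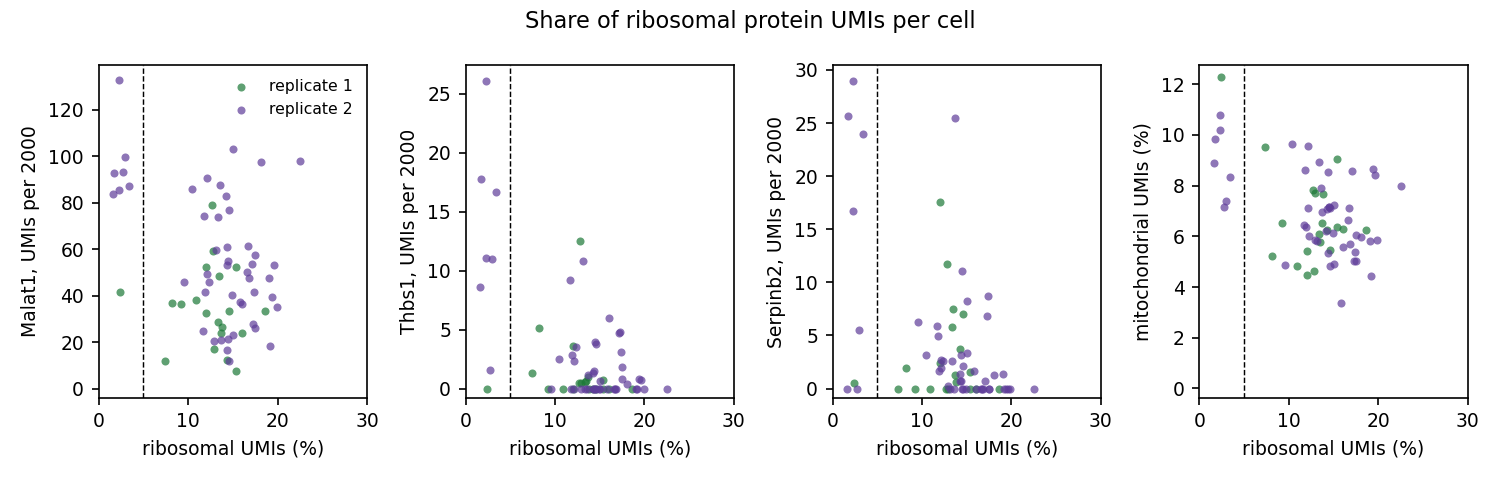
Each point is 1 cell, with the percentage of its UMIs on ribosomal protein genes on the x axis and, on the y axes from left to right, the level of *Malat1*, *Thbs1* and *Serpinb2* (UMIs per 2000) and the percentage of mitochondrial UMIs; the dashed line marks 5%. The 7 cells of replicate 2 left of the line lie at 83.6 or more for *Malat1*, and 6 of them lie above 5 for *Thbs1*.

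These 7 cells differed from the other 41 in named genes as well. Levels here and below are UMIs per 2000 UMIs of a cell. UMIs were counted at 5′ ends and levels were not scaled by transcript length. Whether length affects the detection of a molecule was not tested. *Malat1*, a long nuclear non-coding RNA, ran from 83.6 to 133 in the 7 cells, with a median of 92.9, against 11.8 to 103, with a median of 47.8, in the other 41. *Thbs1*, which encodes the matrix glycoprotein thrombospondin-1, had medians of 11.1 and 0.42, and *Igfbp3*, a binding protein of insulin-like growth factors, of 4.77 and 0.56. *Serpinb2*, an inhibitor of plasminogen activators, had medians of 16.7 and 1.26, although 2 of the 7 cells had no UMI of it. *Col17a1*, the collagen of hemidesmosomes, had medians of 10.2 and 4.55, and *Flna*, the actin crosslinker filamin A, of 2.37 and 0. Short and abundant messages were low in the same cells: *Tmsb4x* (thymosin beta 4) at 1.72 against 7.97, *B2m* (the light chain of MHC class I) at 1.19 against 8.31, and *Eef1a1* (a translation elongation factor) at 0.862 against 9.85. The medians of *Krt14* were closer, 22.8 against 30.0, and its range of 14.8 to 28.6 lay inside that of the other cells. Over the 144 of 149 readable genes outside ribosomes, mitochondria and translation that have a known transcript length, the difference in level between the low-ribosomal cells and the rest was larger for longer transcripts, with a Spearman coefficient across genes of 0.62 in replicate 2 and 0.47 in replicate 1. In replicate 2 the 20 genes with the largest difference towards the 7 cells had a median transcript length of 3283.5 bases, and the 20 with the largest difference away from them of 850.5 bases. The coefficient of replicate 1 compares 1 cell with 19, and that cell also held the most *Krt10* of its library. It had no UMI of *Thbs1* or *Flna*, and its *Col17a1* was 2.9 against a median of 6.34. Its *Tmsb4x* (2.41 against 7.15) and *B2m* (2.9 against 7.15) were low, as in the 7 cells. What sets the low-ribosomal cells apart was not tested. Pair correlations, the leading axis, and the Fano factors and library ratios that move most are also given without them below.

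Checked against the label, the basal keratins were high in nearly all cells, apart from 3 cells of replicate 1 and 4 of replicate 2 with little *Krt14*, which are described with the keratins. *Krt14* ran from 0 to 56.4 UMIs per 2000, with a median of 24.1, in replicate 1, and from 0 to 63.1, with a median of 28.6, in replicate 2. *Krt5*, its partner in the filament, was seen in every cell, at 3.38 to 44.5 and at 0.662 to 43.9. *Col17a1* was seen in 20 of 20 and 46 of 48 cells, with medians of 6.28 and 4.83. *Cyr61* and *Thbs1*, both secreted matrix proteins and targets of the YAP coactivator, marked only some of the cells. After each cell was thinned to 2000 UMIs, *Cyr61* was present in 50.0% (27.2% to 72.8%) of the cells of replicate 1 and 54.2% (39.2% to 68.6%) of those of replicate 2. *Thbs1* was present in 45.0% (23.1% to 68.5%) and 54.2% (39.2% to 68.6%), where the intervals are exact 95% Clopper-Pearson intervals and cover counting error only. Unthinned, these shares were 55.0% and 60.4% for *Cyr61* and 50.0% and 58.3% for *Thbs1*. Of the genes of the sort, *Itga6* had 42 and 133 UMIs and *Ly6a* had 23 and 32. *Cd34* had none, which by a limit of 3 cells allows a share of cells with a UMI of up to 15% in replicate 1 and 6.25% in replicate 2. The upper ends of the exact intervals were 16.8% and 7.4%, and both limit detection, not expression.

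**Figure D2:**
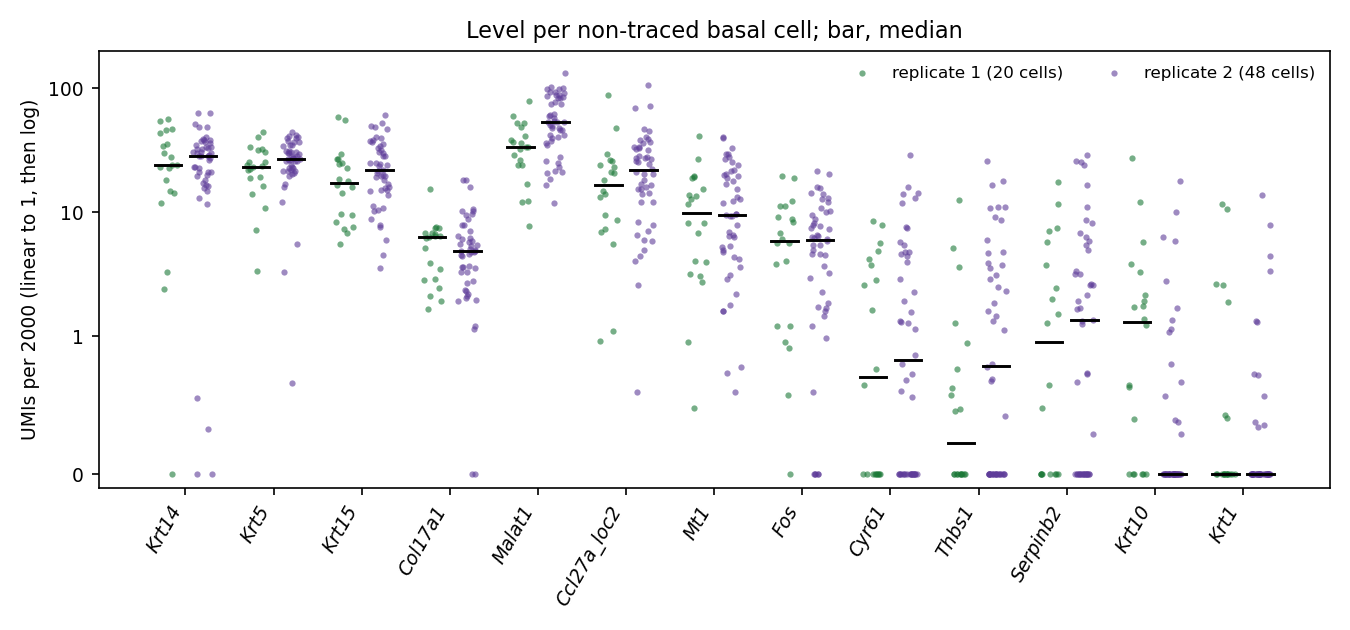
Points are single cells of replicate 1 (green, 20 cells) and replicate 2 (purple, 48 cells), bars are medians, and the y axis gives UMIs per 2000, linear up to 1 and logarithmic above. The basal keratins and *Malat1* are high in nearly all cells, whereas *Cyr61*, *Thbs1*, *Serpinb2*, *Krt10* and *Krt1* have many cells at 0 and a few above 10.

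Markers of other cells that the sort could hold were seen, most of them at low counts. At least 3 of 12 markers of the infundibulum and upper follicle were seen in 5 and 15 cells, mostly *Krt17* (68 and 123 UMIs), *Sostdc1* and *Krt6a*. At least 3 of 10 markers of the bulge and outer root sheath were seen in 1 and 3 cells, led by *Krt16* (62 and 90 UMIs) and *Postn*. Over all lists, 6 of 20 and 16 of 48 cells reached 3 markers of some other cell type. Langerhans cell markers summed to 14 and 13 UMIs, with 4 of 10 in 1 cell of replicate 1, and sebaceous gland markers to 17 and 22 UMIs. Fibroblast markers summed to 5 and 26 UMIs, 24 of the latter from *Sparc*, and endothelial markers to 10 and 34, of which 9 and 34 were *Ly6c1*. T cell markers summed to 0 UMIs in replicate 1 and 36 in replicate 2, where 1 cell held 6 of 9. Melanocyte, Merkel cell and erythrocyte markers summed to at most 2 UMIs in either library. Doublets were not called, and the results were repeated without these cells and without the deepest 5% of cells.

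Among the most abundant transcripts the keratins stood beside *Malat1* and mitochondrial RNAs. The 20 genes with the highest mean over both libraries took 16.2% of UMIs in replicate 1 and 18.6% in replicate 2, and 17 of each library's own first 20 were shared. It took 311 genes in replicate 1 and 242 in replicate 2 to reach 50% of all UMIs. *Malat1* led with a mean of 34.8 ± 17.6 (SD, n = 20 cells) and 57.7 ± 28.6 (SD, n = 48 cells), followed by the mitochondrial ribosomal RNA *mt-Rnr2* with 29.7 and 31.0. *Krt14* followed with 26.7 ± 16.8 and 27.6 ± 14.2 (SD over cells), *Krt5* with 23.4 ± 10.4 and 26.9 ± 9.48, and *Krt15* with 20.3 ± 14.6 and 24.4 ± 13.6. The 3 basal keratins together took 3.52% and 3.94% of UMIs. The locus row *Ccl27a_loc2*, a chemokine made by keratinocytes that attracts T cells to skin, reached means of 20.3 and 25.0 and ran from 0.966 to 88.1 and from 0.593 to 106. Its sequence has near-identical copies in the mouse genome, so the share that belongs to this locus is uncertain. The metallothioneins *Mt1* and *Mt2*, small proteins that bind zinc and copper, had means of 11.7 and 12.1 in replicate 1 and 13.1 and 12.6 in replicate 2. Others among the first 20 were mitochondrial transcripts (*mt-Atp8*, *mt-Co1*, *mt-Nd1*, *mt-Co2*, *mt-Co3*), genes of ribosomes and translation (*Rplp1*, *Rps29*, *Rpl13a*, *Eef1a1*), *Ptma* and *Anxa2*. The log2 means of the libraries correlated across genes with r = 0.947, where genes are not independent replicates.

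Variability was read from the Fano factor, the variance of a gene's thinned counts over cells divided by their mean, which is 1 when only counting noise is present. In each library a gene had to hold 20 thinned UMIs or more and be seen in 5 cells or more, which left 243 genes. A Fano factor of at least 2 was reached by 103 genes in replicate 2, 42.4% of those read, and by 94 in replicate 1, 38.7%. Of the 103 genes called in replicate 2, 76 (73.8%) were called in replicate 1, against the 38.7% among all genes there. Replicate 1 had no part in these calls, but it did in the minimum for reading a gene. The rank order was shared too, with a Spearman coefficient across the 243 genes of 0.727. The Fano factor also depends on a gene's mean, and the log2 means of the libraries correlated at 0.947. The recurrence is therefore not independent of level. Just inside the bound in replicate 2 was *Dnajb1* (2.009) and just outside was *Gata3* (1.997). Without the 8 low-ribosomal cells 47 of 231 genes that could then be read (20.3%) were called in both libraries, against 31.3% with them.

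**Figure D3:**
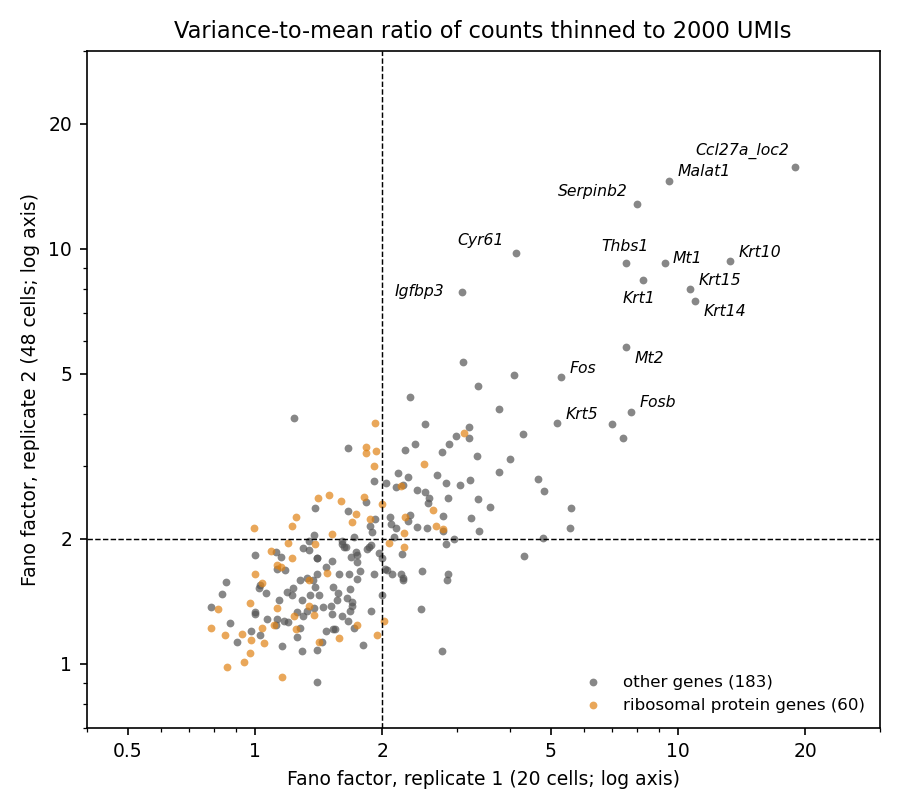
Each point is 1 of the 243 genes, with its Fano factor in replicate 1 on the x axis and in replicate 2 on the y axis (both logarithmic); dashed lines mark 2. Ribosomal protein genes (orange) mostly lie near 1 to 4, and *Ccl27a_loc2*, *Malat1*, keratins, *Serpinb2*, *Thbs1* and the metallothioneins lie farthest from the origin in both libraries.

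The most variable genes were keratins, secreted proteins, metallothioneins and immediate early genes. *Ccl27a_loc2* came first with Fano factors of 18.9 and 15.7, and *Malat1* followed with 9.52 and 14.6. *Krt10* had 13.3 and 9.33 and *Krt1*, its filament partner, 8.28 and 8.42, although both had medians of at most 1.31 UMIs per 2000. Among the basal keratins, *Krt15* had 10.7 and 8.01, *Krt14* 11.0 and 7.48 and *Krt5* 5.17 and 3.8. Expressed as a coefficient of variation with counting noise removed, *Krt5* spread least of the 3, with 0.424 and 0.323, against 0.614 and 0.483 for *Krt14* and 0.692 and 0.536 for *Krt15*. *Serpinb2* had Fano factors of 8.0 and 12.8, *Thbs1* of 7.54 and 9.23 and *Cyr61* of 4.13 and 9.77. *Fos* had 5.29 and 4.91, *Fosb* 7.74 and 4.05 and *Atf3*, a stress-induced transcription factor, 3.77 and 4.1. *Apoe*, the lipid carrier apolipoprotein E, had 4.1 and 4.97. Called in both libraries were 9 of 60 ribosomal protein genes (15%), 7 of 14 mitochondrial genes (50.0%) and 60 of 169 other genes (35.5%), against 31.3% of all. Without the low-ribosomal cells the Fano factors of replicate 2 were 4.37 for *Thbs1*, 8.93 for *Serpinb2*, 12.5 for *Malat1* and 1.92 for *Fosb*, which fell below the bound, and that of *Krt10* in replicate 1 was 4.51.

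Some abundant transcripts had lower Fano factors, although 4 of the 8 named here still reached 2 in both libraries. Among 50 genes with a mean of at least 5 UMIs per 2000 in both libraries, the lowest of the larger Fano factors belonged to *mt-Co2* (2.15 and 2.12), *Rpl35* (1.87 and 2.23), *mt-Co3* (2.24 and 1.61), *Rpl31-ps12*, *Rplp2* (1.25 and 2.26), *Rps18*, *Rpl39* and *Fau*. Most of these are ribosomal protein genes or pseudogenes, which share reads with near-identical copies. *mt-Co2* ran from 3.4 to 21.7 and from 3.0 to 24.2 UMIs per 2000.

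Covariation was described by Pearson's r over cells between the levels of gene pairs, where a level is the mean over 20 thinnings of ln(UMI + 1). All cells of a library share its chip and preparation and are scaled to the same total, so genes are tied to each other through the total, and r is given without a p. Among 29403 pairs, 1350 (4.59%) had r of at least 0.5 in replicate 2 and 1111 (3.78%) in replicate 1. The pairs past the bound in both numbered 492, which is 36.4% of those of replicate 2 and 44.3% of those of replicate 1. Of the 1770 pairs between ribosomal protein genes 303 (17.1%) were among them, and of the 11026 pairs with no gene of ribosomes, mitochondria or translation 21 (0.19%), against 1.67% of all pairs. At the other end, 666 pairs (2.27%) had r of at most −0.4 in replicate 2 and 1287 (4.38%) in replicate 1, and 58 had it in both. Read from replicate 2, 8.71% of opposite pairs recurred, against the 4.38% among all pairs of replicate 1.

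Many of the pairs that were together rested on the 8 low-ribosomal cells. Without them, and for the same 243 genes, 111 pairs (0.378%) were together in replicate 2 and 737 (2.51%) in replicate 1, 29 pairs were together in both, and 22 of the 492 earlier pairs were among them. The median r between ribosomal protein genes was 0.28 and 0.39 with all cells and 0.14 and 0.13 without the 8. The pair with the largest smaller r, *Rpl35* and *Rps3a1*, had r of 0.87 in both libraries with all cells, and 0.76 and 0.42 without. Opposite pairs with a mitochondrial gene, such as *Rps18* and *mt-Nd1*, a subunit of respiratory complex I, had r of −0.55 and −0.57 with all cells and of −0.35 and −0.09 without.

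**Figure D4:**
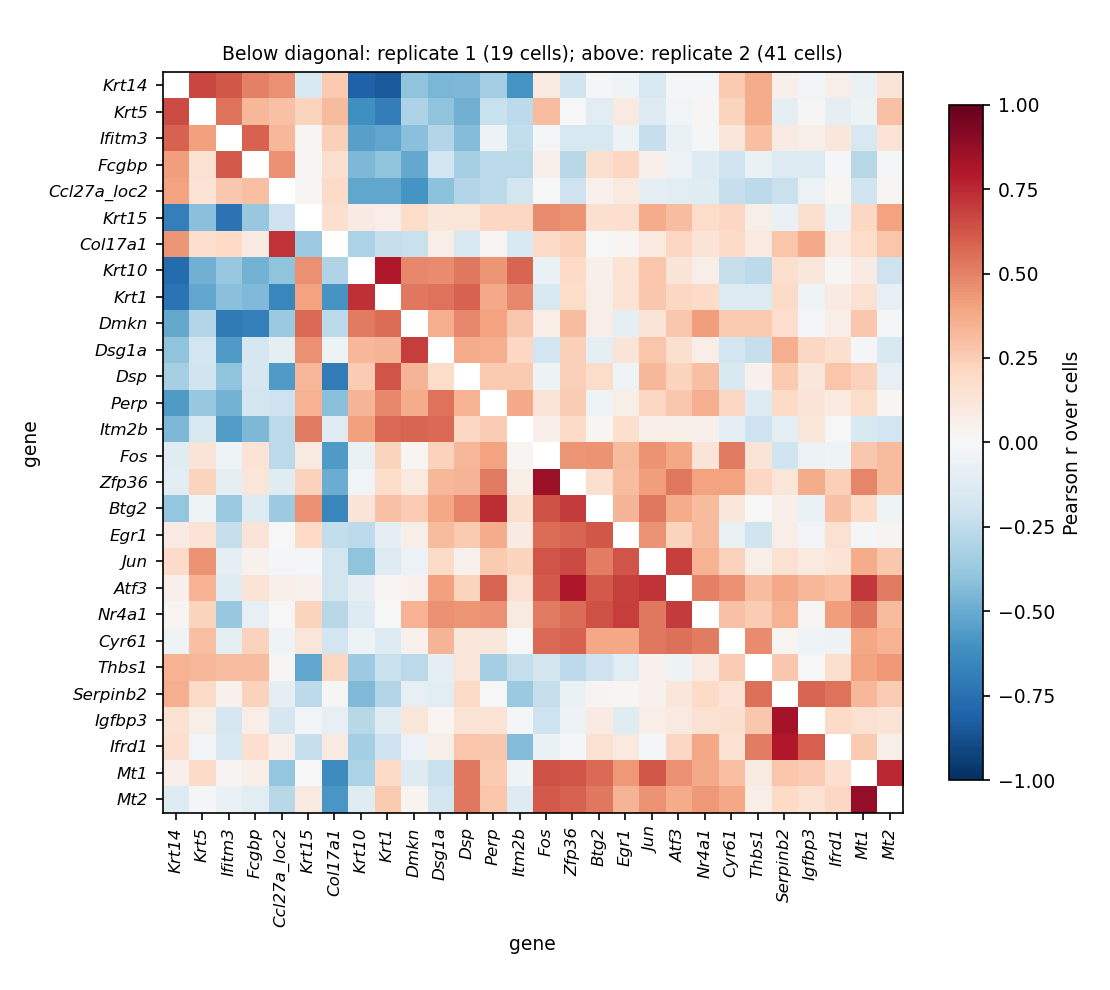
The colour of each square is Pearson's r over cells between the 2 genes of its row and column, from −1 (blue) to 1 (red), without the 8 low-ribosomal cells; squares below the diagonal are replicate 1 (19 cells) and those above it replicate 2 (41 cells). Pairs that are red on both sides include *Krt14* with *Krt5*, *Krt10* with *Krt1*, *Fos* with *Cyr61*, *Serpinb2* with *Igfbp3*, and *Mt1* with *Mt2*.

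Among the keratins, *Krt14* and *Krt5* went together, with r of 0.72 in replicate 1 and 0.63 in replicate 2, and of 0.65 and 0.67 without the low-ribosomal cells. *Ifitm3*, an interferon-induced membrane protein, went with *Krt14* at 0.65 and 0.54 (0.59 and 0.62 without those cells), and *Fcgbp*, an IgG-binding protein, at 0.49 and 0.42. The values of *Krt15* were different. Its r with *Krt14* was −0.61 in replicate 1 and −0.11 in replicate 2, and with *Krt5* −0.29 and 0.3, so the libraries did not give the same picture. *Krt15* (chr11:100131759-100135949) and *Krt14* (chr11:100203162-100207510, both GRCm38.p6) lie in the same keratin cluster, with their lower ends 71403 bases apart. The first partner of *Krt15* was the pseudogene row *Rps15a-ps4*, at 0.36 and 0.35, and at 0.39 and 0.22 without the low-ribosomal cells.

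*Krt10* and *Krt1* stood opposite to *Krt14*. The r of *Krt14* with *Krt10* was −0.80 and −0.79 and with *Krt1* −0.79 and −0.82, the most negative of all pairs by the weaker of the 2 libraries. *Itm2b*, a membrane protein, was opposite to *Krt14* at −0.53 and −0.56. *Krt10* and *Krt1* went together at 0.83 and 0.79. These values turn on few cells. In replicate 1, 3 cells had fewer than 5 *Krt14* UMIs per 2000 and in replicate 2, 4 cells, whereas the lowest *Krt14* level of all other cells was 11.9 and 11.6. Every cell with at least 6 *Krt10* UMIs per 2000, 2 and 3 in number, was among these 7. Their *Krt10* ran from 3.29 to 27.5 in replicate 1 and from 5.88 to 17.9 in replicate 2, while *Krt15* stayed at 15.9 to 55.0 and 15.6 to 39.9. In replicate 1 the cell with no *Krt14* UMI held 12.1 *Krt10* and 11.6 *Krt1* UMIs per 2000, and in replicate 2 the cell with 0.331 of *Krt14* held 17.9 and 7.95. Their *Krt5* ran from 3.38 to 24.0 and from 0.662 to 30.0, so it reached levels of the other cells. The cell with the highest *Krt10*, 27.5 in replicate 1, is also that library's low-ribosomal cell.

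Without the *Krt14*-low cells, and with full counts scaled to 2000, the r of *Krt14* with *Krt10* was −0.60 over 17 cells of replicate 1 and 0.12 over 44 cells of replicate 2. On the same scale it was −0.81 and −0.78 with all cells. That of *Krt14* with *Krt1* was −0.10 and 0.11, and that of *Krt10* with *Krt1* 0.51 and 0.07. The rank correlation of *Krt14* with *Krt10* over all cells of replicate 2 was −0.17. In replicate 2 the opposite pattern was therefore the contrast of 4 cells with the other 44, and among the 44 the r was near 0. *Krt14* with *Krt5* had 0.49 and 0.50 without the *Krt14*-low cells, and 0.35 and 0.75 without the cells that held at least 6 *Krt10* UMIs per 2000, against 0.72 and 0.63 with all cells. With all cells, the partners of *Krt10* beside *Krt1* were *Itm2b* (0.53 and 0.60), *Dmkn* (dermokine, 0.45 and 0.49), *Dsp* (desmoplakin, 0.48 and 0.44) and *Perp* (0.45 and 0.42), the latter pair parts of desmosomes. Without the low-ribosomal cells *Itm2b* had 0.41 and 0.58 and *Dmkn* 0.52 and 0.48. *Dsp* then had 0.25 and 0.53 and *Perp* 0.34 and 0.44. Over 13 alternatives *Itm2b* ran from 0.41 to 0.60 in replicate 1 and from 0.18 to 0.75 in replicate 2. In replicate 1, 65.0% (40.8% to 84.6%) of thinned cells had a *Krt10* UMI, and in replicate 2, 25.0% (13.6% to 39.6%). The unthinned shares were 70.0% and 31.2%, and the *Krt10* level had an r of 0.08 and 0.35 with the log of total UMIs.

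**Figure D5:**
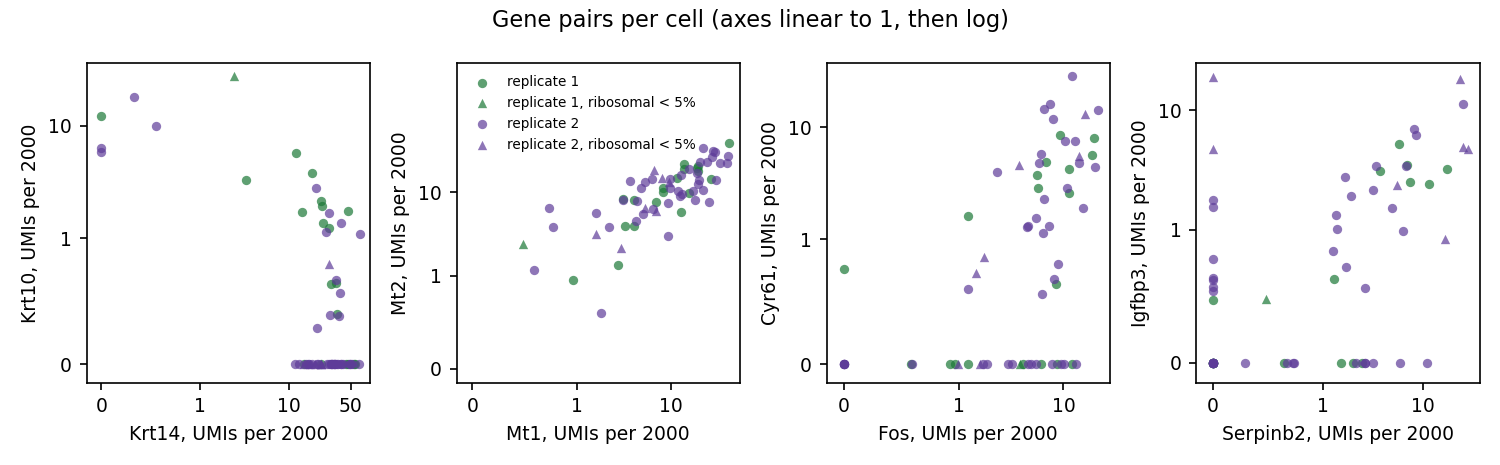
Each point is 1 cell, with the levels of 2 genes in UMIs per 2000 on axes that are linear up to 1 and logarithmic above; triangles are the 8 cells under 5% ribosomal UMIs. In the left panel the 7 cells with little *Krt14* lie apart from all others, whereas *Mt1* and *Mt2* rise together over their whole range.

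Of 18 genes of suprabasal differentiation 4 could be read, and their pairs had a median r of 0.57 and 0.50, the highest among the lists. Without the cells with at least 6 *Krt10* UMIs per 2000 the list gave no median, since fewer of its genes could then be read. All 4 were called variable in both libraries, beside 31.3% of all genes. The list also held *Krtdap*, with UMIs in 4 and 6 cells but up to 9.51 and 17.2 UMIs per 2000 in a cell. *Ivl*, the gene whose promoter drives the Cre, had no UMI in either library, with the same limits on detection as *Cd34*.

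Immediate early genes were a further group whose members varied together. Of 24 genes on the list, 12 could be read, and 12 in replicate 1 and 10 in replicate 2 were called variable, beside 38.7% and 42.4% of all genes. The summed level of the list ran from 3.05 to 94.7 in replicate 1, with a median of 42.8, and from 4.75 to 115 in replicate 2, with a median of 41.0. The median r over the 66 pairs was 0.49 and 0.36, against 0.0282 and 0.026 over all pairs, and 0.48 and 0.32 without the low-ribosomal cells. At least 0.5 was reached by 30 pairs (45.5%) in replicate 1, by 8 (12.1%) in replicate 2 and by 3 in both, beside 3.78%, 4.59% and 1.67% of all pairs. *Atf3* with *Jun*, a subunit of the AP-1 factor, had 0.68 and 0.56, and 0.72 and 0.69 without the low-ribosomal cells. *Atf3* with *Zfp36*, which destabilises short-lived messages, had 0.79 and 0.55, and *Fos* with *Zfp36* had 0.86 and 0.48. The sum of the list was only weakly related to depth, with r of 0.17 and 0.11 to the log of total UMIs.

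The highest r values of *Cyr61* were with genes of this group. Its first partner was *Fos* (0.57 in both libraries, and 0.57 and 0.52 without the low-ribosomal cells), followed by *Zfp36* (0.59 and 0.47), *Atf3* (0.58 and 0.44) and *Nr4a1* (0.52 and 0.38). With *Thbs1* its r was 0.27 and 0.39, and 0.25 and 0.47 without those cells, when that with *Zfp36* was 0.59 and 0.40. The differences between these values were not tested. Of 16 matrix-associated targets of YAP, *Cyr61* and *Thbs1* were the only ones that could be read. *Cyr61* ran from 0 to 8.56 in replicate 1, with a median of 0.704, and from 0 to 28.7 in replicate 2, with a median of 0.831. In replicate 1 its level rose with the log of total UMIs at r = 0.47, and in replicate 2 at 0.06.

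Since *Cyr61*, *Fos* and *Zfp36* moved together, the 200 bases before each RefSeq start were searched on both strands for the CArG box, the site of serum response factor. It was present in 1.18% of 32851 windows of that length. It was found before *Zfp36*, 58 bases from the start, and not in the windows of *Fos*, *Cyr61* (*Ccn1* in RefSeq), *Atf3*, *Jun* or *Btg2*. The last 100 bases before the *Zfp36* start (GRCm38.p6, chr7:28379229-28379328, minus strand, RefSeq) are shown because they hold the match, which is in capitals.
Zfp36: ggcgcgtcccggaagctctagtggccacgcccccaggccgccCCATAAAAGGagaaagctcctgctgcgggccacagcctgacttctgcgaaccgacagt
A match is a description of letters, and no match says only that the letters are not in the window. The CRE motif TGACGTCA was found before *Btg2*, at 166 bases, and in 1.47% of windows.

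The metallothioneins gave one of the tightest pairs outside the ribosome, next to *Krt10* and *Krt1* when ranked on the weaker library. *Mt1* ran from 0.483 to 41.3 UMIs per 2000 in replicate 1, with a median of 9.9, and from 0.593 to 40.0 in replicate 2, with a median of 9.52. *Mt2* ran from 0.958 to 39.2 and from 0.599 to 34.1, with medians of 10.0 and 11.0. No cell lacked either gene at full depth. In replicate 1 the highest *Mt1* cell, at 41.3, stood above the next, at 26.7, and in replicate 2 the levels had no such gap. Their r was 0.89 and 0.75, and 0.88 and 0.75 without the low-ribosomal cells, and over 14 alternatives it stayed between 0.76 and 0.89 in replicate 1 and between 0.61 and 0.80 in replicate 2. *Mt1* also went with *Atf3* (0.52 and 0.68) and *Dnajb1* (0.54 and 0.48), a co-chaperone of the heat shock response. With *Fos* it had 0.60 and 0.28, and *Mt2* had 0.60 and 0.33. The other readable genes of the metallothionein and oxidative stress list did not join them, since the median r over its 6 pairs was 0.03 and 0.13.

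*Mt1* and *Mt2* are neighbours on chromosome 8, with the lower ends of their annotated genes 6265 bases apart, and metal response elements are known in their promoters. The core of that element was searched as TGCACNC or TGCGCNC on both strands in the 200 bases before the RefSeq start, and 18.2% of the 32851 windows hold at least 1 match. Among the other genes searched, *Jun* holds 1, 179 bases before its start, and *Btg2* holds 1, at 96 bases. *Mt1* (chr8:94178889-94179088) holds 1, 23 bases before the start, and *Mt2* (chr8:94172418-94172617) holds 2, at 128 and 50 bases. The windows are shown with matches in capitals, from GRCm38.p6, plus strand, RefSeq.
Mt1: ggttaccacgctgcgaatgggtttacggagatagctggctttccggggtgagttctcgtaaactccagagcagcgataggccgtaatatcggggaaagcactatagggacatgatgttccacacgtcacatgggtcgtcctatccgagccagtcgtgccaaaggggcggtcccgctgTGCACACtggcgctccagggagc
Mt2: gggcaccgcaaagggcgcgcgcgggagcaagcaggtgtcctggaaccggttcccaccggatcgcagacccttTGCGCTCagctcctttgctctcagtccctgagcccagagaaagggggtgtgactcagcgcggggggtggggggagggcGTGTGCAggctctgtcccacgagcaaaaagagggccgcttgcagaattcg
The *Mt1* window lies inside the annotated gene, whose lower end is at base 94178883. Other *Mt1* transcripts, annotated by GENCODE, start 122 and 152 bases after the RefSeq start used here. The window is therefore not the stretch just before those starts, which was not searched in full. The 1 match of *Mt1* is a count for this window and not for its promoter.

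*Serpinb2*, *Igfbp3*, *Ifrd1* and *Thbs1* were high in a minority of cells. *Serpinb2* ran from 0 to 17.6 in replicate 1, with a median of 0.957, and from 0 to 29.0 in replicate 2, with a median of 1.35. At least 5 UMIs per 2000 of it were present in 5 and 12 cells, and at least 5 of *Thbs1* in 2 and 9. *Serpinb2* went with *Igfbp3* at 0.83 and 0.52 and with *Ifrd1* at 0.80 and 0.52, and without the low-ribosomal cells these were 0.83 and 0.58, and 0.80 and 0.54. Its relation to *Thbs1* was lower in replicate 2 without some of the cells. With all cells r was 0.56 and 0.54, without the 8 cells 0.55 and 0.27, and without the cells with 3 markers of another cell type 0.57 and 0.21. Without the latter cells *Serpinb2* with *Igfbp3* was 0.78 and 0.38. Of the 9 cells of replicate 2 with at least 5 *Thbs1* UMIs per 2000, 6 were low-ribosomal, and of the 12 such cells for *Serpinb2*, 5 were. In replicate 2 *Col17a1* with *Thbs1* had 0.39 with them and 0.10 without, and *Malat1* with *Thbs1* 0.30 and −0.03. *Anxa8*, an annexin, stood opposite to *Thbs1* at −0.54 and −0.48, and at −0.52 and −0.05 without those cells. The 1 low-ribosomal cell of replicate 1 had no *Thbs1* UMI. The other first partners of *Thbs1* were divided. *Ifrd1* had 0.50 and 0.36 with it (0.51 and 0.16 without the 8 cells), and *Krt16* 0.29 and 0.30 (0.26 and 0.02 without). Similar r without the 8 cells was seen for *Sfn*, the stratifin protein of keratinocytes, at 0.35 and 0.40 (0.34 and 0.45 without). The same held for *Lmna*, which encodes lamins A and C, at 0.41 and 0.34 (0.38 and 0.36 without).

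*Ccl27a_loc2*, the most variable gene, had r of 0.53 and 0.35 with *Krt14* and of −0.76 and −0.32 with *Krt1*. Without the low-ribosomal cells these were 0.40 and 0.46, and −0.65 and −0.52. The relation to *Krt14* turned on the *Krt14*-low cells, since without them it was −0.08 and 0.14 on full counts scaled to 2000, and that to *Krt1* was −0.48 and −0.07. The rank correlation with *Krt14* over all cells was 0.16 and 0.22. With *Col17a1* its r was 0.68 and −0.17, and 0.72 and 0.19 without those cells. The first partners of *Col17a1* were *Krt17* (0.39 and 0.39) and the chemokine *Cxcl14* (0.47 and 0.34), and without those cells they had 0.37 and 0.26, and 0.46 and 0.36. Of the other lists, 6 of 17 genes of basal keratinocytes could be read, 4 of them were called variable in both libraries, beside 31.3% of all genes, and their median r was −0.07 and 0.03 over 15 pairs. Heat shock genes had a median r of 0.13 and 0.07 over 15 pairs, genes of actin and the cytoskeleton 0.01 and 0.02 over 21, and MHC class I and interferon genes −0.29 and −0.03 over 3. *H2-K1*, an MHC class I heavy chain, was opposite to *Rps9* at −0.57 and −0.52, and at −0.57 and −0.53 without the low-ribosomal cells. This pair was named as 1 of the 10 most negative of 29403. Neither gene was called variable, with Fano factors of 1.14 and 1.42 for *H2-K1* and of 1.34 and 1.59 for *Rps9*.

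The leading axis of each library, the first principal component of the standardised levels of the 243 genes, carried 16.0% of the variance in replicate 1 and 22.0% in replicate 2. The loadings of the libraries correlated across genes with r = 0.75. At one end lay ribosomal protein genes, *Rps20*, *Rpl35* and *Rps3a1* in replicate 1 and *Rpl13a*, *Rps28* and *Rps16* in replicate 2. At the other end lay *mt-Co3*, *mt-Co1*, *mt-Co2* and *Krt10* in replicate 1, and *Thbs1*, *mt-Nd1*, *Igfbp3*, *Ahnak*, *Srsf5*, *Serpinb2*, *Col17a1* and *Malat1* in replicate 2. Without the low-ribosomal cells the axis carried 8.87% in replicate 2, and the correlation of loadings was 0.43. The next axis of replicate 2 carried 5.25% and set *Krt1*, *Atf3*, *Krt10*, *Dsg1a*, *Dsp*, *Jun*, *Zfp36* and *Perp* against *Krt14*, *mt-Nd4l*, *Fcgbp* and *Krt5*. In replicate 1 it carried 10.1% and set *Nr4a1*, *Dnajb1*, *Btg2* and *Fosb* against *Hsp90b1*, *Ctsb* and *Atpif1*, and its loadings correlated with those of replicate 2 at 0.41. Across cells the ribosomal and mitochondrial shares had r of −0.48 and −0.50, but of −0.03 and −0.14 without the low-ribosomal cells, and the log of total UMIs went with the spike-in share at −0.89 and −0.88.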

How the data were processed

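The authors captured single sorted cells on Fluidigm C1 chips and made 5′ STRT libraries with 21 cycles of PCR. They deposited raw UMI counts, whole numbers for each well and gene, in tables that also hold spike-ins and reporters. The submitters' processing notes name the builds mm10 and GRCm38. The aligner is not given in the sources used here. Both Tom-minus tables were used and no column of them was left out.

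Gene UMIs were summed per well over all rows other than spike-ins and reporters, and wells with at least 2000 were kept. Of the gene rows, 1207 are named as loci of a symbol and were treated as genes. The kept cells summed to 81630 and 184578 UMIs. Each cell was thinned to 2000 UMIs in 20 draws (seed 1), the depth of the study's own downsampling. Fano factors are means over draws, and levels are means of ln(UMI + 1). Genes with at least 20 thinned UMIs and UMIs in at least 5 cells of each library were read. A pair was called at r of at least 0.5 or at most −0.4, calls of replicate 2 were read in replicate 1, and the reverse was an alternative. The procedure was tested on simulated data. The lists and the genes named were chosen with earlier results of these data known. Named are the 20 most abundant and 20 most variable genes, 20 pairs together and 10 opposite, 5 partners for each of 10 seed genes, 8 genes at each end of the first 2 axes of replicate 2, members of lists, and 10 genes that differ most between the libraries. Genes and pairs were ranked on the weaker value of both libraries, and abundant genes on the mean. The axis ends of replicate 1, the pairs outside ribosomal, mitochondrial and translation genes, pairs between named genes, the steady genes and the genes of the low-ribosomal cells were chosen after their values were seen. *Hspa1a*, a seed gene, could not be read. A gene that this rule names is not reported here. Promoter windows came from RefSeq and transcript lengths from GENCODE. Python 3.11.15, numpy 2.4.6, scipy 1.17.1, pandas 2.3.3 and matplotlib 3.10.9 were used. No test was made, since each run holds 1 library of the group and cells are not replicates. PCR copies were collapsed by UMI, and intervals cover counting error only.

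Alternatives were a minimum of 1000 or 3000 UMIs, the deepest 5% of cells left out, cells with 3 markers of another cell type or 6 *Krt10* UMIs left out, 1 draw with another seed, counts scaled without thinning, 10 or 40 thinned UMIs per gene, other bounds, Spearman's coefficient, regression of depth and spike-in share, and each library left out. Leaving out low-ribosomal cells, *Krt14*-low cells, the cell with the highest *Krt10* or the cell with T cell markers was added after seeing the data.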

Additional observations from a re-analysis of the deposited data

Results flagged for a closer look

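The reporter rows, which no value above uses, held a signal of the Cre recombinase. In replicate 2 the cre row had 18 UMIs in 11 of 48 cells (22.9%), and in replicate 1 it had 3 UMIs in 2 of 20 cells. A count of 0 would, by a limit of 3 cells, allow 6.25% of the cells of replicate 2, so the row was singled out as a signal in data outside the main measurement. The Tomato row had 3 UMIs in 3 cells of replicate 2 and none in replicate 1, and *Ivl* had none in either. What sets these counts was not tested.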

How the results depend on the processing

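The first 20 abundant genes shared 18 to 20 with the list above, the share of genes within 2-fold between libraries lay at 81.4% to 82.9% against 82.5%, and with calls chosen in replicate 1 and read in replicate 2, 80.9% of variable genes and 44.3% of pairs recurred, against 73.8% and 36.4%. Some weak values changed sign in replicate 2: *Krt14* with *Krt15* from −0.11 to 0.06 at 1000 UMIs, *Malat1* with *Thbs1* from 0.30 to −0.03 and the MHC list from −0.03 to 0.20, the latter pair without low-ribosomal cells. Without *Krt14*-low cells *Krt14* with *Krt10* went from −0.78 to 0.12 there. Counts of pairs moved most, and the cause was not tested, except that other bounds and gene minimums change what is counted. No paired analysis was possible because no result comes from a test.

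Genes variable in both libraries were 31.3% of those read, and 20.3% with at least 1000 UMIs per cell, 16.9% with counts scaled without thinning, 14.7% with at least 10 thinned UMIs per gene, 11.1% with a Fano factor of at least 3 and 20.3% without low-ribosomal cells. Pairs together in both were 1.67%, and 8.48% at 1000 UMIs, 4.19% without cells with markers of another type, 0.881% without *Krt10* cells, 0.642% with 1 draw, 0.345% and 5.79% with at least 10 and 40 UMIs per gene, 3.24% and 0.894% with r of at least 0.4 and 0.6, 0.507% by Spearman's coefficient and 0.0979% without low-ribosomal cells. Opposite pairs in both were 0.197%, and 0.457% and 1.64% at 3000 and 1000 UMIs, 0.7% without cells with markers of another type, 0.109% with 1 draw, 0.0643% and 0.516% with at least 10 and 40 UMIs per gene, 0.0782% by Spearman's coefficient and 0.0941% without low-ribosomal cells. Lists with a median r of at least 0.3 in both numbered 3, and 1 without *Krt10* cells, with 1 draw, with at least 10 UMIs per gene and without low-ribosomal cells. Without *Krt10* cells or without low-ribosomal cells the suprabasal list gave no median, since fewer of its genes could then be read. With the genes kept the same, its median r without low-ribosomal cells was 0.54 and 0.50.

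The leading axis carried 16.0% in replicate 1, and 23.1% and 30.5% at 3000 and 1000 UMIs, 23.9% without cells with markers of another type, and 10.9% and 23.3% with at least 10 and 40 UMIs per gene. In replicate 2 it carried 22.0%, and 33.3% at 1000 UMIs, 13.8% and 31.9% with at least 10 and 40 UMIs per gene and 8.87% without low-ribosomal cells. Read in replicate 2 alone, with genes no longer required in replicate 1, it carried 13.1%. The correlation of loadings was 0.75, and 0.88 at 1000 UMIs, 0.52 without *Krt10* cells, 0.68 with 1 draw, 0.63 and 0.83 with at least 10 and 40 UMIs per gene and 0.43 without low-ribosomal cells. With 2000 UMIs per cell and 20 cells in replicate 1, genes under about 1 UMI per cell could not be read.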

Other observations

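Most genes of dividing cells had few UMIs, although some cells held several of them. A list of 20 genes of S phase had 62 UMIs over the cells of replicate 1 and 88 over those of replicate 2. At least 3 of these genes were seen in 5 of 20 and 6 of 48 cells. A list of 24 genes of G2 and mitosis had 195 and 402 UMIs, and at least 3 of them were seen in 4 and 5 cells. Its 1 readable gene was *Tubb4b*, with means of 3.53 and 3.08 UMIs per 2000. *Mki67*, a protein of cycling nuclei, had 1 and 3 UMIs, each time in 1 cell. *Top2a*, which untangles DNA before mitosis, had 7 UMIs in 2 cells and 11 UMIs in 1 cell. Genes of earlier tracing studies of basal cells summed to a median of 2.49 and 2.42 UMIs per 2000, and none of the 12 could be read for variability. Genes of glycolysis and hypoxia (195 and 554 UMIs) and of cholesterol synthesis (63 and 174 UMIs) had no readable member either, and 1 of 29 signalling ligands and receptors could be read.

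Between the libraries, 82.5% of 2168 genes lay within 2-fold, with a median absolute log2 ratio of 0.44. *Elmo2* (20 UMIs in 7 cells against 2 UMIs in 1 cell), *Tmpo* (25 against 6 UMIs) and *Trip12* (18 against 6) had the largest ratios towards replicate 1. *Psma7*, a proteasome subunit, had 3 UMIs in replicate 1 and 44 in replicate 2, and *Rbbp8* had 3 and 40. *Hist1h2ap_loc2* and *Elovl4* were also higher in replicate 1, but 19 of 23 and 13 of 20 of their UMIs came from 1 cell. *Krt10* was higher in replicate 1 by 1.27 on the log2 scale and *Krt1* by 1.01. A single cell of replicate 1 held 57 of its 138 *Krt10* UMIs and 22 of its 64 *Krt1* UMIs, and without it the log2 ratios were 0.58 and 0.47. The log2 ratio of *Malat1* was −0.73 and that of *Thbs1* −0.83, both towards replicate 2. The low-ribosomal cells of replicate 2 held 123 of its 258 *Thbs1* UMIs, and without the low-ribosomal cells of both libraries the log2 ratio of *Thbs1* was 0.03 and that of *Malat1* −0.63. Each library is 1 sample, so these differences were not tested.

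In replicate 2, 1 cell held 6 of 9 markers of T cells, led over the library by *Cd3g*, and all 20 cells of replicate 1 held none. Without it, pairs together in both numbered 498 instead of 492 and variable genes 73 instead of 76.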
